A study of Mus musculus with 3 samples.

Results

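The miRNA content of undamaged Müller glia (MG), which span the retina from its inner to its outer border and sustain its neurons, was described from the wild type sample of a NanoString nCounter series, in which a fixed panel of mature miRNAs is tagged and the tagged molecules are counted without amplification. The members are all 602 rows of the deposited table whose identifier is that of a mature miRNA in miRBase, of 626 rows in all, in the column of the wild type sample only. The sample is 1 of 3 in the series and came from adult Rlbp1-CreER:tdTomato mice, from which 40 retinas were pooled. According to the study, its wild type miRNA data came from an earlier publication. Their raw values were normalized anew along with those of light damage. The mice received tamoxifen at 75 mg/kg on 3 consecutive days according to the labels and on 4 according to the methods, so that cells in which the Rlbp1 promoter had driven Cre carried the red reporter, and only the brightest cells were collected. Rlbp1 encodes a retinoid binding protein that is made by MG and by the retinal pigment epithelium. With 1 pooled sample there was no spread between animals or between measurements, no test was run, and every interval below is an exact 95% Clopper-Pearson interval that covers counting error only.

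miRNAs are short RNAs that guide Argonaute proteins to mRNAs, most often by pairing of the seed, bases 2 to 8 counted from the 5′ end, and thereby repress translation. miRNAs with the same seed can reach the same target sites, which is why they are treated as a family. MG need miRNAs for their function, and in the retina many miRNAs are known to differ between glia and neurons, such as miR-124 of neurons. The rows carry identifiers only, and 26 of the 602 were named here from the study's plots of miRNAs. For 21 rows the order of the plotted names was taken as the order of the wild type counts, and 5 rows were found by their plotted changes in the other conditions. The bars were read by eye with earlier values of these data known, so the order of the names below rests on that plot and was not checked independently. These 26 rows held 92.8% of the summed miRNA count. For 21 of the 26, a mature sequence of that name was found in a RefSeq table (build GRCm38.p6).

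The mature sequences of the miRNAs that made up most of the repertoire are shown with the seed in capitals, first the 5 most abundant of the 9 that are the only row with their seed among the 21 rows with a sequence.
miR-204: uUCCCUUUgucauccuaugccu
miR-9: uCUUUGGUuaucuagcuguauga
miR-181a: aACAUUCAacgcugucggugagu
miR-30c: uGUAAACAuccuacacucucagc
miR-135a: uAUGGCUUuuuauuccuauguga

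The next set shows the 4 seeds that were shared by more than 1 of the 21 rows, so that the members can be compared base by base. For miR-29a the 3p arm is shown, whereas the study's text names its 5p arm when it describes other data, and which arm the probe detects was not tested.
miR-125b-5p: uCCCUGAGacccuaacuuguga
miR-125a-5p: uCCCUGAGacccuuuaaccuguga
let-7c: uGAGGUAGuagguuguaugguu
let-7b: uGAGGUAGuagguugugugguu
let-7g: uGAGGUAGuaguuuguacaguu
let-7d: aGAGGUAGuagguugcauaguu
let-7a: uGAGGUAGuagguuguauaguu
let-7e: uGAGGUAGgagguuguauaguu
miR-99a: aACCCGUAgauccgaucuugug
miR-100: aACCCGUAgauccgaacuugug
miR-29a: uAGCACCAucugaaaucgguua
miR-29b: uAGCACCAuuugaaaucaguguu

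The normalized counts of the 602 rows summed to 783889, which corresponds to 678721 counts before the scaling of the authors (factor 1.15). The repertoire was dominated by very few miRNAs. The 2 highest rows held 50.4% of the sum, 7 rows held 75%, 19 held 90%, 33 held 95% and 107 held 99%. The inverse Simpson index, the number of equally abundant rows that would give the same evenness, was 5.86, and it was 10.7 without the highest row. The highest 12 rows each exceeded 10000 normalized counts and together held 84.6%. A further 28 rows lay between 1000 and 10000 (11.5% of the sum), 68 between 100 and 1000 (2.92%) and 234 between the floor and 100 (0.946%).

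The remaining 260 rows, or 43.2%, were at the floor, the lowest value that the background correction leaves. The floor was listed as 1 for 243 rows and as 1.15 for 17. These rows summed to 0.0335% of the total. A count of 0 among all counts before scaling allows a share of up to 0.000442% (3 counts), but an unknown background had been subtracted. A row at the floor is therefore not shown to be absent from the cells, nor a row just above it to be present. The median over all 602 rows was 10 normalized counts, and over the 342 rows above the floor it was 39.0. The rows of this single sample thus spanned from the floor to 285706.

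**Figure D1:**
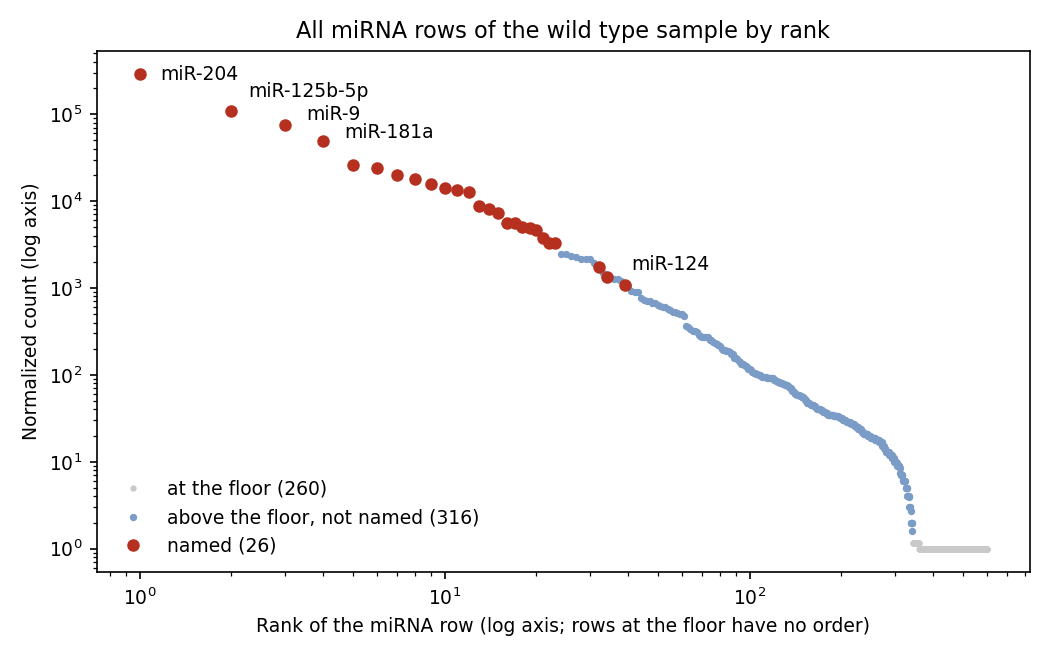
Normalized count (log axis) of each of the 602 miRNA rows against its rank (log axis) in the wild type sample. Red points are the 26 named rows, blue points the 316 other rows above the floor and grey points the 260 rows at the floor, and the 4 highest rows held 66.3% of the summed count.

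miR-204 was the most abundant miRNA of the sample by a wide margin. It had 285706 normalized counts, 36.4% of the sum (95% interval 36.3 to 36.6), and exceeded the second row, miR-125b-5p, 2.61-fold (2.59 to 2.63). miR-204 is known from eye development and from pigmented and neural ocular tissues. Its only hairpin in the RefSeq table lies inside the span of Trpm3, a cation channel gene, and the mature sequence is at chr19:22750610-22750631 on the plus strand (GRCm38.p6). The RefSeq table holds 2 other mature miRNAs with the same seed, miR-211-5p and miR-7670-3p, whose rows could not be named.

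miR-125b-5p followed with 109596 counts (13.98%, 13.9 to 14.1), miR-9 with 75416 (9.62%, 9.55 to 9.69) and miR-181a with 48829 (6.23%, 6.17 to 6.29). miR-9 is a miRNA of neural progenitors and glia that regulates neurogenesis, and miR-125b, which shares its seed with the worm miRNA lin-4, is widespread in the nervous system. miR-181a is better known from neurons of the inner retina and from lymphocytes. The 4 highest miRNAs were each separated from the next by more than counting error, with neighbouring ratios between 1.45 and 2.61, and together they held 66.3% of the sum.

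From rank 5 to rank 12 the levels fell slowly. let-7c had 26178 normalized counts, miR-720 had 23904, miR-99a had 19815, let-7b had 18043, let-7g had 15643, miR-30c had 13955, let-7d had 13294 and miR-135a had 12833. Neighbours in this stretch differed by at most 1.21-fold, yet each by more than counting error. A step of 1.47-fold separated miR-135a from miR-29a (8716 counts). Then came let-7a with 8129 and miR-16 with 7260. miR-29a is known to repress collagen and other matrix mRNAs, and miR-16 represses cyclins and other cell cycle genes.

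The other named rows lay between 1094 and 5639 counts. miR-125a-5p had 5639, miR-100 had 5626, miR-1944 had 5024, miR-22 had 4916, miR-30d had 4676, let-7e had 3790, miR-335-5p had 3329 and miR-23a had 3327. Of the 22 pairs of neighbours among the 23 rows of at least 3000 counts, 3 could not be ordered, since the interval of their ratio held 1. These were miR-125a-5p with miR-100 (1.002, 0.963 to 1.04), miR-1944 with miR-22 (1.02, 0.980 to 1.07) and miR-335-5p with miR-23a (interval 0.9497 to 1.05). Below 3000 counts, miR-29b had 1748, miR-124 had 1354 and miR-1937a+b had 1094. Each miRNA is detected by its own probe, and the efficiency of each probe is unknown here, so that a ratio between miRNAs compares normalized counts and not numbers of molecules per cell.

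**Figure D2:**
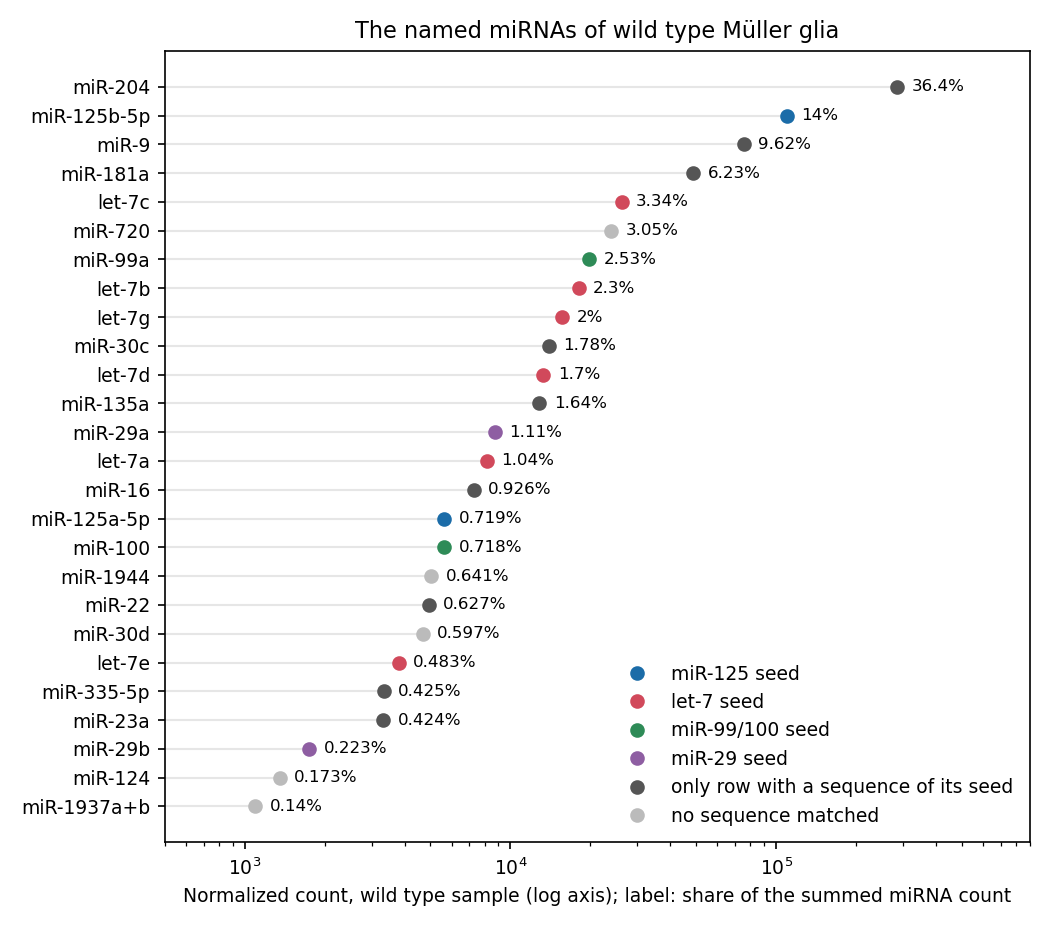
Normalized count (log axis) of the 26 named miRNAs in the wild type sample, with the share of the summed miRNA count beside each point. Colours mark rows that share a seed, and the 6 let-7 rows spread from 3790 to 26178 counts.

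Of the 576 rows without a name, 316 were above the floor, and together all 576 held 7.15% of the sum. The highest were MIMAT0000590 with 2445 normalized counts and MIMAT0000122 with 2436, at ranks 24 and 25. In all, 14 of these rows reached 1000 counts and another 68 lay between 100 and 1000. Of the 30 highest rows 7 had no name, and all 23 rows of at least 3000 counts had one. This follows from how names were assigned, since 21 of the 23 came from the study's plot of declining miRNAs above that level, and miR-720 and miR-29a from its plot of rising ones.

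Grouped by seed, the 21 rows with a sequence fell into 13 seeds and held 88.3% of the sum. The 4 highest seeds held 71.6% and the 5 highest 77.9%. The seed of miR-204 came first (36.4%), followed by that of miR-125 with 115235 counts (14.7%, 14.6 to 14.8), that of let-7 with 85077 (10.9%, 10.8 to 10.9), that of miR-9 (9.62%) and that of miR-181 (6.23%). The let-7 family thus had rank 3 among the seeds, although its highest single member had rank 5 among the rows. The seeds of miR-99 and miR-100 (3.25%), miR-30 (1.78% for miR-30c, and 2.38% with miR-30d, which belongs to the family by its name and is not among the 21 rows), miR-135 (1.64%), miR-29 (1.33%), miR-16 (0.926%), miR-22 (0.627%), miR-335 (0.425%) and miR-23 (0.424%) followed. For 8 of the 13 seeds the RefSeq table holds further mature miRNAs whose rows, if on the panel, could not be named. That table gave no sequence for some named miRNAs, such as miR-30d and miR-124, so the other seeds may have further members too. These sums therefore cover the members with a sequence only. The let-7 seed, for example, occurs in 11 mature names of that table and 6 of them were named here.

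**Figure D3:**
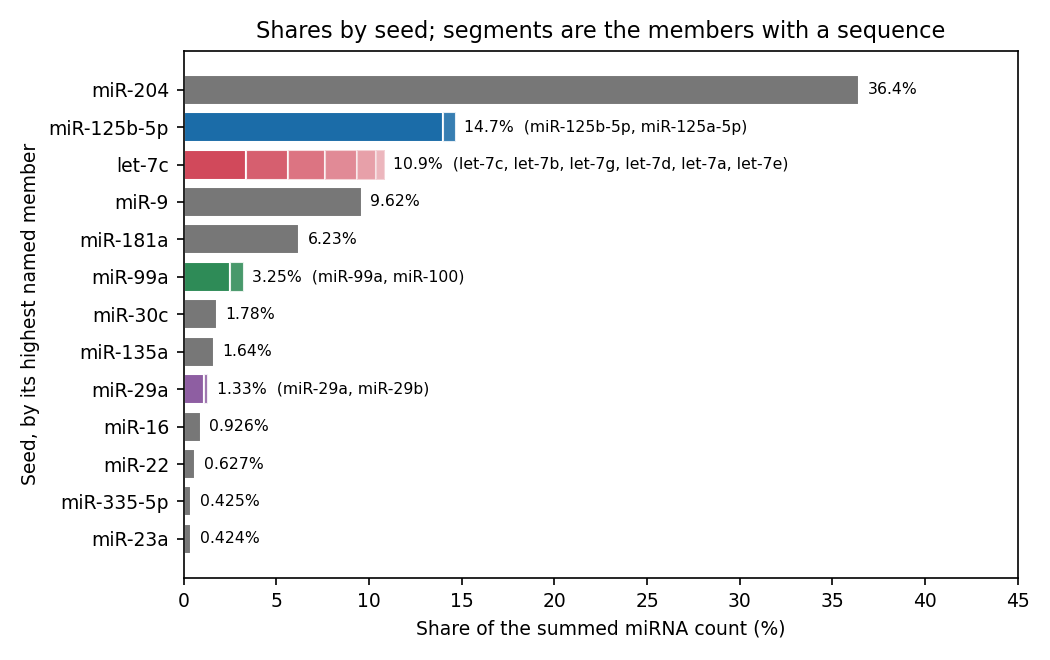
Share of the summed miRNA count (%) for each of the 13 seeds, labelled by its highest member. Segments are the named members with a sequence in order of their level, and the let-7 bar is divided among 6 rows while the miR-125 bar is almost entirely miR-125b-5p.

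The families differed in how evenly their named members contributed. The let-7 family, whose members repress growth and stem cell genes such as Lin28 and mark differentiated cells, was spread over its 6 named rows. let-7c held 30.8% of the sum of these 6 rows. It exceeded let-7b 1.45-fold (1.42 to 1.48), let-7a 3.22-fold (3.14 to 3.31) and let-7e 6.91-fold (6.66 to 7.17). The sequences of these rows are close to identical. Counting positions from 1 at the 5′ end, let-7c differs from let-7b by A17G and from let-7a by G19A alone, from let-7e by U9G and G19A, from let-7g by G12U, U18C and G19A, and from let-7d by U1A, U16C and G19A. Cross-hybridization between such near-identical miRNAs was not tested.

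In the other shared seeds 1 of the named members prevailed, and the sums below cover the named members only. miR-125b-5p made up 95.1% of the miR-125 sum and exceeded miR-125a-5p 19.4-fold (18.9 to 20.01), and these mature sequences share their first 13 bases before they diverge. miR-99a made up 77.9% of its sum with miR-100 and exceeded miR-100 3.52-fold (3.41 to 3.64). Their mature sequences differ by a single base, U16A from miR-99a to miR-100. miR-29a made up 83.3% of its sum with miR-29b and exceeded miR-29b 4.99-fold (4.72 to 5.27), with 9 shared first bases. The RefSeq table also gives this seed to miR-29c-3p, whose row, if on the panel, could not be named, so its part is unknown. Only the 3p arm of miR-29a has this seed, so with its 5p arm miR-29b would be the only named row. miR-99a and miR-100 are known to act on the mTOR pathway.

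Most of the abundant rows began with U. Of the 21 sequences, 15 (71.4%) start with U and 6 with A (28.6%), none with C or G, and the 15 held 86.2% of the counts of the 21. Of all 1679 mature names that RefSeq gives here, 40.9% start with U, 25.6% with A, 20.7% with C and 12.8% with G. Argonaute is known to prefer U or A at the 5′ end of its guide. The 21 sequences had a median GC content of 43.5% (range 30.4 to 50), compared with 52.2% over the RefSeq names, and the same median length of 22 bases (range 21 to 24). The 6 that start with A were miR-181a, miR-99a, let-7d, miR-100, miR-22 and miR-23a. With the 5p arm of miR-29a, 14 sequences start with U and hold 84.9% of these counts. The 21 rows were all at 1748 counts or more, and the other rows were not compared.

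The 21 sequences were found in 31 hairpins. miR-9 came from 3 hairpins, 8 miRNAs from 2 each and 12 from 1. Rows with a single hairpin held 49.5% of the sum, most of it miR-204, and rows with several hairpins held 38.8%. For the latter the count cannot be assigned to a locus, since the mature sequences are identical. Of the 31 hairpins 20 lie inside the span of another annotated gene, 9 of them inside a protein-coding one. Examples are let-7g in Wdr82, miR-335-5p in Mest, an imprinted gene, 1 of the miR-16 hairpins in Smc4, 1 of the miR-30c hairpins in Nfyc, and miR-22 in its host lncRNA Mir22hg. The strand of the spanning genes, and thus whether they are transcribed together, was not examined.

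Related clusters of a miR-99 or miR-100, a let-7 and a miR-125 gene are a known feature of vertebrate genomes, and named members of 3 such clusters could be compared. On chromosome 16, Mir99a (mature sequence chr16:77598940-77598961) and Mirlet7c-1 (chr16:77599672-77599693) lie side by side, and Mir125b-2 (chr16:77646279-77646300) follows within 50 kb. On chromosome 9 the order is Mir100 (chr9:41531437-41531458), Mirlet7a-2 (chr9:41536732-41536753) and Mir125b-1 (chr9:41581940-41581961), all inside the span of the lncRNA gene Mir100hg. On chromosome 17, Mirlet7e (chr17:17830366-17830387) and Mir125a (chr17:17830817-17830840) lie inside the span of Spaca6. All are on the plus strand.

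miR-99a and miR-100 each have 1 hairpin, in the chromosome 16 and the chromosome 9 cluster, respectively, and had 19815 and 5626 normalized counts. Each count belongs to its cluster only if the probes do not cross-hybridize, which was not tested. The members of the chromosome 17 cluster also have 1 hairpin each. miR-125a-5p had 5639 counts and let-7e had 3790, a ratio of 1.49 (1.42 to 1.56), so both single-locus rows of this cluster were at about the level of miR-100 or below. let-7c, which has a hairpin on chromosome 16 and another beside let-7b on chromosome 15, exceeded miR-99a by only 1.32-fold (1.295 to 1.35), and let-7a exceeded miR-100 1.44-fold (1.39 to 1.499). The pairs compared here were chosen after their values were seen. miR-125b-5p, with a hairpin in each of the clusters on chromosomes 9 and 16, stood apart from both, at 5.53-fold miR-99a (5.44 to 5.62) and 19.5-fold miR-100 (18.9 to 20.1).

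Joined within 10 kb on the same strand, 6 clusters held more than 1 named row, and the highest row exceeded the lowest by 1.32-fold to 4.99-fold, with a median of 1.47-fold. In 5 of the 6, 1 row has a further hairpin elsewhere, so these folds compare whole counts of neighbouring genes and not the output of a locus, and only the chromosome 17 cluster consists of rows with a single hairpin. The widest difference was that of miR-29a and miR-29b on chromosome 6, whose hairpins span 434 bases, and miR-29b has a further hairpin on chromosome 1. let-7d exceeded let-7a, its neighbour on chromosome 13 with a further hairpin on chromosome 9, 1.64-fold (1.59 to 1.68). When hairpins were joined within 50 kb, there were 7 clusters with a median of 1.64-fold, which then included both miR-125b hairpins and the pair of let-7g and miR-135a. The range widened to between 1.22-fold for let-7g over miR-135a and 19.5-fold for miR-125b-5p over miR-100.

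**Figure D4:**
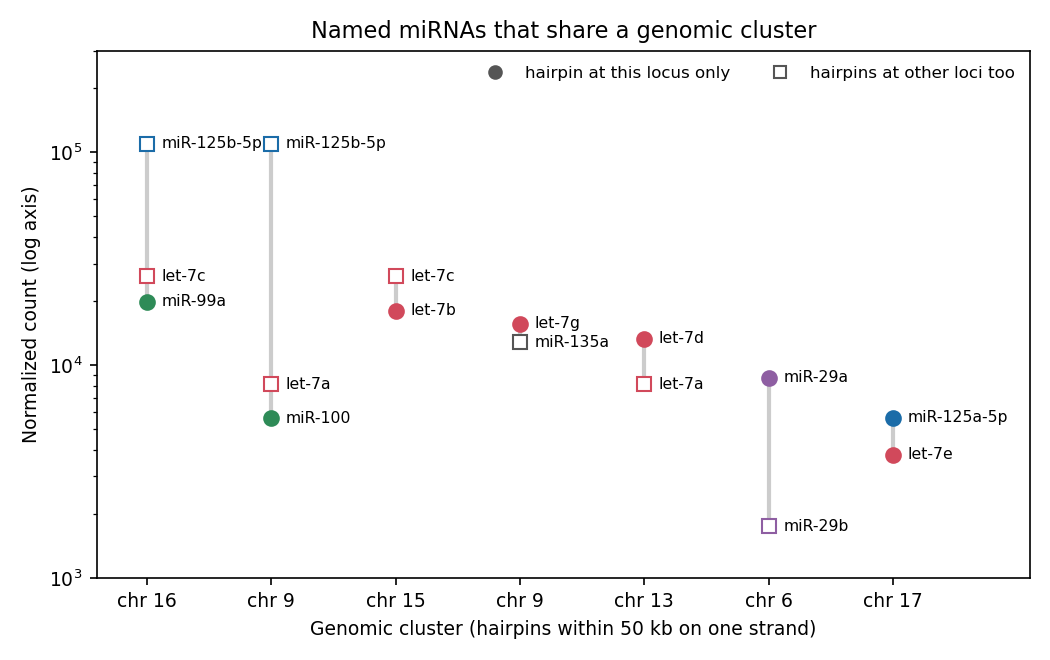
Normalized counts (log axis) of named miRNAs whose hairpins lie within 50 kb on the same strand, with 1 column per genomic cluster. Filled circles are miRNAs with a hairpin at that locus only and open squares are miRNAs with further hairpins elsewhere, and miR-125b-5p lies above its neighbours on chromosomes 16 and 9.

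The label of the sample was set beside lists of miRNAs. The 7 mGliomiRs, which the study describes as expressed far more in MG than in neurons (miR-204, miR-125b-5p, miR-9, miR-99a, miR-135a, miR-100 and miR-23a), held 65.4% of the summed count (65.2 to 65.5), with ranks from 1 to 23 and a median of 19815 counts. Without miR-204 the other 6 held 28.9%. The 7 shared miRs, described as similar in MG and neurons (miR-181a, let-7c, let-7b, let-7g, miR-30c, let-7d and miR-29a), held 18.5% (18.4 to 18.5), with ranks from 4 to 13 and a median of 15643. The sum of the mGliomiRs was 3.54-fold that of the shared miRs. The members of both lists were read from a schematic of the study, whose text names only examples and the let-7 family as a whole. With let-7a and let-7e counted as shared, the shared miRs held 19.97% and the ratio was 3.27-fold. The authors drew up both lists from their own earlier profiles of sorted MG, so these sums are not independent evidence for the identity of the cells.

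miR-124, the most abundant miRNA of mature neurons, had 1354 normalized counts, rank 34 and 0.173% of the sum (0.163 to 0.183). The level of miR-204 was 211-fold that of miR-124 (199 to 224). The other 9 members of the neuron list and all members of the lists of photoreceptor, leukocyte and microglia, red blood cell, blood vessel, epithelium, striated muscle, pluripotent cell and liver miRNAs could not be named, so that 8 of the 11 lists gave no value. mRNA markers of MG were not analysed here. The part of RNA from other cells in the miR-124 count was not tested.

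Of the 26 named rows, 5 had no sequence in the RefSeq table and together held 4.60% of the sum. These were miR-720, miR-1944, miR-30d, miR-124 and miR-1937a+b. miR-720, at rank 6 and with 3.05% of the sum (3.01 to 3.09), was later withdrawn from miRBase as a likely tRNA fragment, and whether its probe counted a miRNA was not tested. The same was not tested for miR-1944 and miR-1937a+b. In whole retina data, the study found its MG miRNAs bound by Argonaute with the exception of miR-1944. Leaving these 5 rows out raised the share of miR-204 to 38.2%.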

How the data were processed

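The values as deposited are a signal: molecule counts that the authors had corrected for background and normalized with nSolver 4.0 to 4 housekeeping mRNAs. No aligner or genome was involved. In the wild type column 26 rows keep 2 decimals above the floor, and with a factor of 1.15495 and a decimal part of 0.375, as an average over 8 negative controls leaves, 25 of them came back as whole counts within 0.02. A single factor per sample does not change shares, which were computed from the deposited values. Intervals use the counts before scaling, and they and the floor cover counting error only.

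The members and lists were chosen with earlier results of these data known. The columns of the other 2 samples served only to assign names. No source used here pairs identifiers with names. The 21 rows above 3000 counts that were lower after light damage took the names of the study's plot in its order, and 5 rows were matched to 2 plotted fold changes each. Bars were read by eye with earlier values known, so their closeness is no check of the names. The mGliomiRs and shared miRs were read from a schematic of the study, whose text gives examples only. The study names the arm of only some miRNAs. Otherwise the strand that carried the plain name in older miRBase versions was used, and for miR-29a, which its text once calls 5p, the 3p arm was used with 5p as an alternative added after the data were seen. Names given in the text followed a rule: the 30 highest rows, all members of the fixed lists, the 10 highest seeds, arm pairs and the 10 highest clusters, and unnamed rows are printed by identifier for 2 rows only. miR-1937a+b falls outside this rule and was included after its value was seen, as 1 of the 26 rows with a name. Sequences and positions are from RefSeq (GRCm38.p6). Alternatives left out the highest row or the named rows without a sequence, subtracted 100, or changed the seed, the minimum or the distance. Calculations ran in Python 3.11.15 with scipy 1.17.1, pandas 2.3.3 and numpy 2.4.6, and plots in matplotlib 3.10.9.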

Additional observations from a re-analysis of the deposited data

Results flagged for a closer look

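Besides the miRNAs, the wild type column holds 6 nmiR rows, for which no source here states what they detect and which enter no result above. Of these, 4 were above the limit that a count of 0 allows (3 counts), with 14774.5, 4060.1, 533 and 27.0 normalized counts, and the other 2 were at the floor. The highest lay above all but 9 of the miRNA rows.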

How the results depend on the processing

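The authors' scaling multiplies all miRNAs of the sample by the same factor, so all shares had the same value before scaling. Without miR-204 the 10 highest rows held 73.2%, the mGliomiRs 45.5%, the shared miRs 29.04% and miR-124 0.272%, the highest seed was that of miR-125 with 23.1%, and sequences that start with U held 76.4% of the counts of those with a sequence. Without the 5 named rows that have no sequence, the 10 highest rows held 83.8%, the highest seed 38.2%, the mGliomiRs 68.5% and the shared miRs 19.3%, and miR-124 gives no value there. With 100 subtracted from every row these shares were 83.1%, 37.3%, 66.8% and 18.8%. Counting each row once, 71.4% of the sequences start with U. With the 5p arm of miR-29a, chosen after seeing the data, U began 84.9% of the counts and the miR-29 seed held 0.223%, and with miR-30d counted by its name, also chosen then, miR-30 held 2.38%. With let-7a and let-7e added, again after seeing the data, the shared miRs held 19.97%. These differences follow from the rows left out or the amount subtracted. More than 50 counts were reached by 153 rows, more than 100 by 106 and more than 1000 by 40, compared with 342 above the floor. The seed of bases 2 to 7 left the highest share at 36.4%. The planned comparison of the 5p and 3p arms of a hairpin was not run, because no hairpin had both arms named. No paired analysis was possible because the sample has no replicate. Names rest on bars read by eye, and depth limits the order of rows whose intervals overlap.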

Other observations

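Among the 602 rows, 36 were deposited with 2 decimals whereas all others are whole numbers, and no source used here says what sets them apart. Whether these 36 detect miRNAs of the mouse was not checked. Of the 36, 17 were at the floor, where 43.2% of all 602 rows lay, and 19 were above it with a median of 17.8 normalized counts. The highest had 60.5. For comparison, 202 of all 602 rows were above the floor and at or below that value, 140 of the other rows exceeded it, and all rows up to it held 0.642% of the summed miRNA count.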
